A study of Mus musculus with 28 samples.

Results

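Some CD8+ T cells taken from mouse tumours held transcripts of Tcf7 and Gzmb in the same cell, and these cells are described here. Tcf7 encodes TCF-1, a transcription factor of naive, memory and stem-like CD8+ T cells, and Gzmb encodes granzyme B, a protease that killer cells release into their targets. In the usual account of CD8+ T cell differentiation, TCF-1 is kept by cells that can renew themselves and is lost as cells become terminal effectors, while granzyme B is gained on activation. A cell with both transcripts therefore carries a memory-precursor and an effector feature at the same time.

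The cells were chosen from a count table of unique molecular identifiers (UMIs, each standing for 1 captured RNA molecule) by their own values. A T cell had at least 1 UMI of Cd3d, Cd3e and Cd3g together, and a Tcf7+Gzmb+ cell also had at least 1 UMI of each of the 2 genes. After cells with under 500 genes or over 10% mitochondrial UMIs were left out, 909 of 5364 T cells met the rule, in a table of 5471 cells. The reference classes were 1943 cells with Tcf7 but no Gzmb UMI (Tcf7-only), 1262 cells with Gzmb but no Tcf7 UMI (Gzmb-only) and 1250 cells with neither. Because Tcf7 and Gzmb UMIs made the classes, their own levels are descriptions.

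All animals were wild-type C57BL/6 mice with MC38-OVA tumours, grown from a mouse colon carcinoma line that carries ovalbumin. Tim-3-PD-1- CD8+ tumour-infiltrating lymphocytes (TILs), which lack both checkpoint receptors on the surface, were sorted on day 12 from mice given antibodies to Tim-3 and PD-1 (blockade) or isotype control antibodies, and made into 1 droplet library per treatment. For bulk RNA sequencing, PD-1- CD8+ TILs were separated into effector-like cells (Slamf7hiCX3CR1+, 3 libraries), memory-like cells (Slamf7hiCX3CR1-, 5 libraries) and naive-like cells (Slamf7-CX3CR1-, 6 libraries), about 2000 cells each. The labels do not say how many animals stood behind a library, so p-values in the bulk data measure the spread between libraries. With 1 library per treatment, blockade and library cannot be told apart in the single cells, no test was possible between them, and intervals cover counting error only. The cell names end in 1 or 2, and these were read as the S1 (isotype) and S2 (blockade) of the descriptions, which is a reading of the names and is stated in no file.

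The blockade library held 2448 T cells and the isotype library 2916, and 7 cell barcodes occurred in both. The median Tcf7+Gzmb+ cell had 4059 UMIs under blockade and 3810 under isotype, against 3848 and 3997 in Tcf7-only and 3816 and 3105 in Gzmb-only cells. Doublets were not removed. Across both libraries, 32 T cells had at least 5 UMIs of tumour and stroma markers, and most of them were very deep. The 3 such Tcf7+Gzmb+ cells of the blockade library had 93123 to 106355 UMIs each and gave 8.74% of the UMIs of their class, and the 2 of the isotype library gave 6.49%. In Tcf7-only cells the shares were 19.9% and 3.99%, and in Gzmb-only cells 7.68% and 5.02%. Since these few cells move summed levels, counts over all genes are given with every cell and then without them, a setting chosen after seeing the data. Levels of single genes, list medians and list counts are without them unless stated, and a gene counted "both ways" passed in both settings.

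Most of the cells had RNA of the CD8+ T cell marker in their label. Cd8a, a chain of the CD8 co-receptor, was detected in 84.6% of Tcf7+Gzmb+ cells under blockade and 81.3% under isotype. Cd4 was found in 3 of 674 and in 0 of 235, where 0 allows a share of up to 1.28% with a Cd4 UMI, which does not limit the share of cells expressing Cd4. Pdcd1, which encodes PD-1, was detected in 15% and 6.81% of Tcf7+Gzmb+ cells although the sort had left out cells with PD-1 on the surface.

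Tcf7+Gzmb+ cells made up 674 of 2448 T cells (27.5%, exact Clopper-Pearson 95% interval 25.8 to 29.3) among the sorted cells of the blockade library and 235 of 2916 (8.06%, 7.10 to 9.11) in the isotype library. Tcf7-only cells were 20.3% of T cells under blockade and 49.6% under isotype. Gzmb-only cells were 38.2% and 11.2%. The larger share of double-positive cells in the blockade library thus went with more cells that had Gzmb (65.7% against 19.3%), while Tcf7 was detected in fewer cells there (47.8% against 57.7%).

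**Figure D1:**
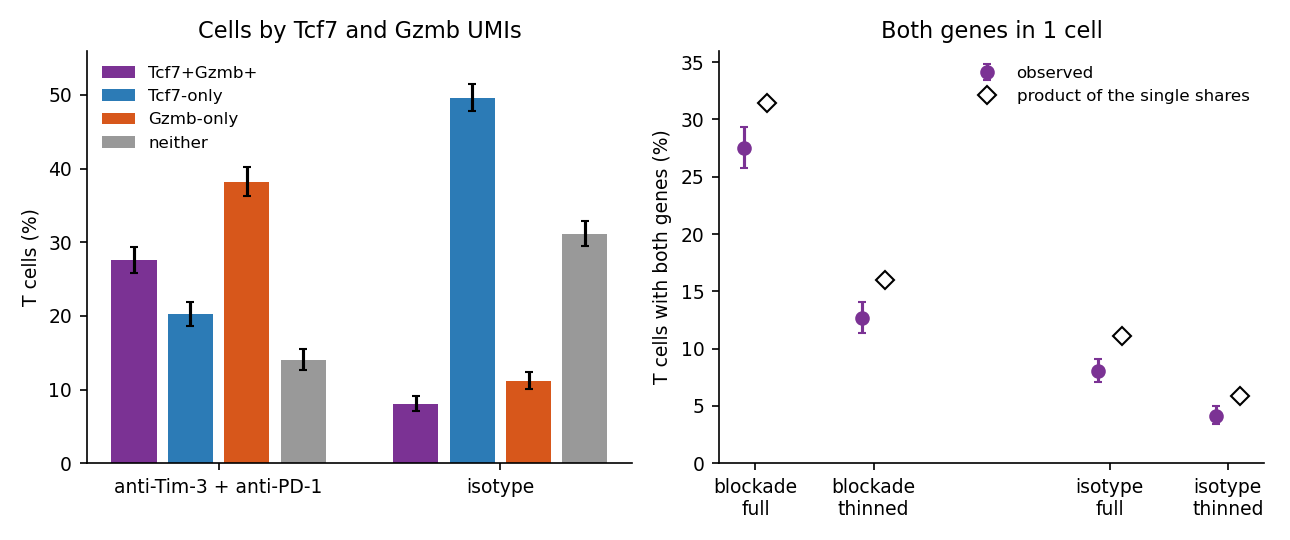
Left, share of T cells (%) in each class by library, with exact binomial 95% intervals; Tcf7+Gzmb+ cells were 27.5% under blockade and 8.06% under isotype. Right, observed share of cells with both genes (circles, 95% interval) beside the product of the shares with each gene (diamonds), at full depth and with each cell thinned to 2000 UMIs; every circle lies below its diamond.

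Both transcripts met in 1 cell less often than the product of the single shares. That product was 31.4% in the blockade and 11.1% in the isotype library, against the observed 27.5% and 8.06%. With each cell thinned to 2000 UMIs, 12.7% of blockade and 4.12% of isotype T cells had both genes, against products of 16% and 5.85%. The odds ratio of the 2 genes was 0.498 and 0.450 at full depth, and between 0.384 and 0.669 when each library was cut into 4 equal groups of cells by depth.

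Tcf7 was detected less often as Gzmb UMIs went up. In the blockade library the share of cells with Tcf7 was 59.1% without Gzmb, 58.0% at 1 Gzmb UMI, 50.6% at 2, 42.4% at 3 to 5, 39.5% at 6 to 10 and 28.3% above 10. In the isotype library the same steps gave 61.5%, 51.8%, 44.8%, 43.8%, 29.5% and 28.6%. The share therefore fell with Gzmb in both libraries without reaching 0. Among all cells with Gzmb, the share with Tcf7 was 41.9% under blockade and 41.8% under isotype at full depth, and 22.2% and 27.5% with cells thinned to 2000 UMIs.

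**Figure D2:**
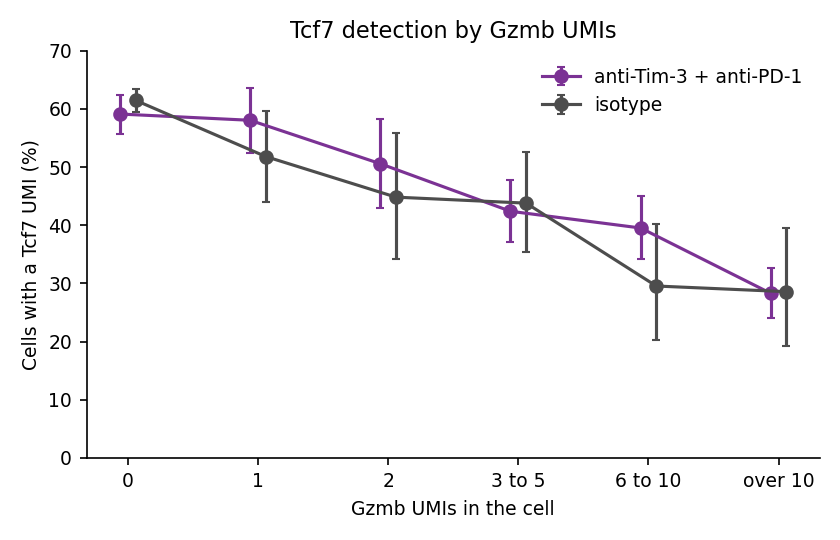
Share of T cells with at least 1 Tcf7 UMI (%) by the number of Gzmb UMIs in the cell, for the blockade and the isotype library, with exact binomial 95% intervals. In both libraries the share is near 60% without Gzmb and near 28% above 10 Gzmb UMIs.

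Detection of Tcf7 was thin. In 61.0% of Tcf7+Gzmb+ cells under blockade and 64.7% under isotype it rested on 1 UMI, and the median Gzmb count was 3 and 2 UMIs, against 7 and 4 in Gzmb-only cells. Both genes stood at 1 UMI in 14.2% and 22.1% of the double-positive cells, and both reached 2 UMIs in 26% and 20.9%. A cell whose Tcf7 RNA was not captured would have been counted as Gzmb-only.

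Free RNA in the droplets can also add a UMI to a cell that does not express the gene. Among cells without any Cd3 UMI, Gzmb was found in 10 of 54 (18.5%) in the blockade library (median 5775.5 UMIs) and in 3 of 34 (8.82%) in the isotype library (median 3873.5), against 65.7% and 19.3% of T cells. Tcf7 was found in 1 of those 54 and 5 of those 34 cells. Some of these cells may themselves be T cells, as Cd3 can be missed. Where cells also lacked Cd8 and had 5 or more myeloid or tumour and stroma UMIs, Gzmb was found in 6 of 34 and 0 of 16, and Tcf7 in 0 of 34 and 1 of 16. How many cells with 1 Gzmb UMI were positive through free RNA was not tested.

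Set against Tcf7-only cells, Tcf7+Gzmb+ cells carried more RNA of the killing machinery, of a few terminal effector genes and of interferon-stimulated genes, and less of a few naive-cell genes. A gene was counted when its CPM (UMIs summed over the cells of a class and scaled to a common total) differed by at least 1.5-fold in the same direction in both libraries, among genes with at least 40 UMIs in the classes compared. The classes were made from measured UMIs, so these counts describe them and no test was run. With every cell, 175 of 7123 genes were higher (2.46%) and 63 lower (0.884%). Without the 32 cells with tumour markers, 175 of 6643 were higher (2.63%) and 62 lower (0.933%), of which 119 and 28 were counted both ways. Classes made again after thinning each cell to 2000 UMIs gave 89 genes higher and 25 lower of 3295, of which 41 and 3 were among the 175 and 63. The median over all genes was a log2 ratio of 0.08 under blockade and 0.09 under isotype.

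Of 17 cytotoxic genes other than Gzmb that could be measured, 7 were higher than in Tcf7-only cells and none lower, counted both ways, and 12 were higher with every cell. The 7 were Gzma, Gzmk, Tnf, Fasl, Ccl3, Ccl4 and Serpinb9. The list's median log2 ratio was 0.58 under blockade and 1.86 under isotype. Gzma encodes granzyme A, another killer protease, and reached 678 CPM under blockade and 513 CPM under isotype in Tcf7+Gzmb+ cells, against 52.6 and 17.7 CPM in Tcf7-only cells. That is 12.8-fold and 28.5-fold higher, and 33.7% of the isotype UMIs came from 1 cell. Counted by cells, which no single cell can sway, Gzma was found in 30.7% and 21.7% of Tcf7+Gzmb+ cells, against 13.3% and 4.08% of Tcf7-only cells. Gzmk, a granzyme of less mature effector cells, had 174 and 145 CPM, against 43.2 and 12.5 CPM. Serpinb9, which encodes an inhibitor that shields the killer cell from its own granzyme B, had 137 and 99.8 CPM, against 65.8 and 27.1 CPM. Ccl3, a chemokine, had 107 and 164 CPM, against 34.4 and 17.2 CPM.

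Other cytotoxic genes stayed close to Tcf7-only cells in 1 library. Nkg7, a protein of cytotoxic granules, had 2531 and 1995 CPM against 1880 and 1223 CPM, so that the fold was 1.35 under blockade and 1.63 under isotype. Ccl5, another chemokine, was 1.35-fold higher under blockade and 4.21-fold under isotype. Prf1, which encodes the pore-forming perforin, had 5.47 and 6.11 CPM in Tcf7+Gzmb+ cells and too few UMIs for a fold.

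Of 17 terminal effector genes, 8 were higher than in Tcf7-only cells without the tumour-marker cells (6 of 19 with every cell), and Bhlhe40, Klrc1, Klrk1 and Klrb1c were higher both ways, with a list median log2 ratio of 0.57 and 1.67. Klrc1 encodes NKG2A, an inhibitory receptor, and had 501 CPM (477 to 527) under blockade and 288 (256 to 324) under isotype, against 221 (201 to 242) and 50.6 (45.1 to 56.5) in Tcf7-only cells. Klrk1, which encodes the activating receptor NKG2D, had 481 and 346 CPM against 280 and 71.2 CPM. Cxcr6, a chemokine receptor of tissue T cells, had 281 and 153 CPM against 143 and 53.8 CPM. Ccr2, a receptor for inflammatory chemokines, had 141 and 112 CPM against 57.5 and 12.0 CPM. In each of these 4 genes the Tcf7+Gzmb+ cells were higher in both libraries, with intervals that did not overlap.

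Of 18 interferon-stimulated genes, 11 were higher than in Tcf7-only cells without the tumour-marker cells and none lower, and 9 were higher both ways, with a list median log2 ratio of 0.67 and 1.66. Isg15, a ubiquitin-like protein made in response to interferon, had 361 and 215 CPM, against 169 and 37.1 CPM in Tcf7-only cells. Ifit3, which binds antiviral signalling proteins, had 287 and 184 CPM, against 147 and 28.5 CPM. Ifit1 had 166 and 115 CPM, against 99.7 and 18.4 CPM. Rsad2, the antiviral enzyme viperin, had 36.7 and 25.5 CPM, against 14.2 and 5.69 CPM. Reads of Ifit3 and of its near-identical copy Ifit3b could not be told apart with certainty, so their separate values are uncertain.

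Most promoters of these genes that could be searched held a short sequence, and 5 stretches are shown. The genes come from a list made for their answer to interferon, so a match says nothing further about these cells. Genes that answer interferon often carry an interferon-stimulated response element, in which GAAA repeats are spaced by a pair of bases. The letters GAAA, any 2 bases and GAAA again, or TTTC, any 2 bases and TTTC when read on the other strand, were searched in RefSeq windows of 300 bases around each gene's start (build GRCm38.p6), and overlapping matches were kept. They were found in 943 of 27025 promoters (3.49%). Of the 9 genes, 7 had a window, and 6 of these 7 held a match, and so did 2 of 6 windows of the other listed genes. Each stretch below reads 5′ to 3′ along the gene and shows matches in capitals.
Ifit1, chr19:34640779-34640838, + strand: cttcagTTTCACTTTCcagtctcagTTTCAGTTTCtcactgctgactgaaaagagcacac
Ifit3, chr19:34583382-34583441, + strand: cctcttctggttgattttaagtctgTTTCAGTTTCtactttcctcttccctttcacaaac
Isg15, chr4:156200850-156200909, - strand: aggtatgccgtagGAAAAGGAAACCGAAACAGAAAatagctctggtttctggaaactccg
Oas1a, chr5:120907505-120907564, - strand: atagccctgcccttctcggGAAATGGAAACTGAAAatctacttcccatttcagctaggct
Rsad2, chr12:26456538-26456597, - strand: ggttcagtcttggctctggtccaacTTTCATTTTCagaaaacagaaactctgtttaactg
The stretch of Ifit3b was letter for letter that of Ifit3. A match describes the letters only and does not show that a factor bound there.

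Some naive and homing genes and 2 memory precursor genes were lower than in Tcf7-only cells, and none of either list was higher. Over all genes 0.933% were lower without the tumour-marker cells. Of 17 naive and homing genes, 5 were lower without the tumour-marker cells, and Dapl1, Actn1, Il6ra and Igfbp4 were lower both ways, with a list median log2 ratio of −0.55 and −0.56. Dapl1, a gene of naive T cells, had 62.1 and 153 CPM in Tcf7+Gzmb+ cells, against 187 and 513 CPM. Actn1, an actin cross-linking protein, had 35.7 and 38.7 CPM, against 73.7 and 89.4 CPM. Of 17 memory precursor genes, Myb and Tnfsf8 were lower both ways, with a median of −0.26 and 0.06. Bcl2, a survival factor, had 562 and 608 CPM against 725 and 585 CPM, and Il7r, the receptor for the survival cytokine IL-7, had 150 and 174 CPM against 190 and 217 CPM, neither past 1.5-fold.

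Some genes of the activation and glycolysis lists were higher than in Tcf7-only cells. Over all genes 2.63% were higher without the tumour-marker cells. Of 13 interleukin-2 and activation genes, Tnfrsf9, which encodes the co-stimulatory receptor 4-1BB, and Irf8, a transcription factor of activated cells and of dendritic cells, were higher both ways. Of 11 glycolysis genes, Pfkp, a phosphofructokinase, was higher both ways and 3 more without the tumour-marker cells. The list's median log2 ratio was 0.56 under blockade and 0.48 under isotype (0.13 and 0.52 with every cell). None of 19 S phase, 16 G2/M or 9 core T cell genes passed the fold in either direction without the tumour-marker cells, and of 24 G2/M genes with every cell 1 was higher and 1 lower. The median log2 ratio of the G2/M list was nonetheless 1.62 under blockade and −0.14 under isotype (0.26 and −0.15 with every cell), and that of the S phase list 0.80 and −0.05 (0.48 and 0.14 with every cell). Tox, a factor of exhausted cells, had 17.1 and 13.2 CPM in Tcf7+Gzmb+ cells, against 27.5 and 36.7 CPM, and was the 1 co-inhibitory gene that was lower without the tumour-marker cells. With every cell none of 10 was lower and Lag3 was higher.

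Markers of other cells moved in the same comparison. Of 4 measurable myeloid markers, Cd68 and Tyrobp were higher in Tcf7+Gzmb+ than in Tcf7-only cells both ways. With every cell, the 16 myeloid markers summed to 529 and 284 CPM in Tcf7+Gzmb+ cells, against 457 and 160 CPM in Tcf7-only cells. In the isotype Tcf7+Gzmb+ cells 7 of them were at 0, among them Lyz2, Csf1r, Adgre1 and the C1q genes. The 11 tumour and stroma markers summed to 236 and 205 CPM, against 464 and 148 CPM. The natural killer and gamma-delta markers in the table summed to 70.8 and 110 CPM, against 51.9 and 42.9 CPM, and the CD4 T cell markers to 102 and 52.4 CPM, against 76.7 and 57.9 CPM. The 12 dendritic markers summed to 665 and 432 CPM, against 460 and 323 CPM, with Siglech, Xcr1 and Clec9a at 0 in Tcf7+Gzmb+ cells of both libraries. The 1 dendritic marker of 6 measured that was higher both ways was Irf8, which the activation list also holds. Of the 7 B cell markers in the table, 5 and 4 were at 0 in Tcf7+Gzmb+ cells, among them Ms4a1. Leaving out every cell with a UMI of a myeloid, B cell or tumour and stroma marker, Cd4, H2-Aa, H2-Ab1, H2-Eb1 or Cd74 gave 105 genes higher and 30 lower of 3770. Of these, 47 and 3 were among the 175 and 63 counted with every cell. Fewer cells and genes remained there, and the part of these markers apart from that loss was not tested.

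Set against Gzmb-only cells, Tcf7+Gzmb+ cells held more RNA of naive and homing genes and less of terminal effector and co-inhibitory genes. With every cell, 29 of 4698 genes were higher (0.617%) and 40 lower (0.851%). Without the tumour-marker cells, 22 of 4459 were higher (0.493%) and 43 lower (0.964%), of which 19 and 30 were counted both ways. Classes made again after thinning each cell to 2000 UMIs gave 7 genes higher and 11 lower of 2241, of which 2 and 3 were among the 29 and 40. The median log2 ratio over all genes was −0.05 under blockade and −0.08 under isotype.

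Of 16 naive and homing genes other than Tcf7, 9 were higher than in Gzmb-only cells and none lower, and 8 were higher both ways, with a list median log2 ratio of 0.66 and 0.68. Ccr7, the chemokine receptor that guides T cells into lymph nodes, had 207 CPM (192 to 224) and 164 (140 to 191) in Tcf7+Gzmb+ cells, against 54.0 (47.1 to 61.6) and 94.4 (77.2 to 114) in Gzmb-only cells. Under isotype its log2 ratio turned to −0.61 once cells with 3 or more cell cycle UMIs were left out. That setting left out most cells. Of Tcf7+Gzmb+ cells 83.5% and 79.6% had 3 or more such UMIs, and of Gzmb-only cells 86.5% and 76.8%. Lef1, a partner of TCF-1, had 131 and 147 CPM, against 80.2 and 96.3 CPM. S1pr1, the receptor for exit from tissue, had 56.3 and 73.3 CPM, against 35.4 and 43.6 CPM. Satb1, a chromatin organiser of T cells, had 247 and 284 CPM, against 156 and 141 CPM, and stood at 274 and 281 CPM in Tcf7-only cells. The double-positive cells thus lay between the single-positive classes for Ccr7 and Lef1, while their Satb1 was at the Tcf7-only level under isotype.

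Among 15 memory precursor genes, Id3, Il7r and Zeb1 were higher than in Gzmb-only cells both ways, with a list median log2 ratio of 0.20 in either library. Id3, an inhibitor of E proteins that marks memory precursors, had 36.7 and 53.0 CPM, against 18.1 and 25.4 CPM. Il7r had 150 and 174 CPM, against 94.8 and 111 CPM. Zeb1, a repressor linked to memory cells, had 55.4 and 50.9 CPM, against 31.0 and 32.7 CPM. None of the list was lower.

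Of 20 terminal effector genes, 7 were lower than in Gzmb-only cells without the tumour-marker cells and none higher, and Klrg1, Zeb2, Id2, Lgals3 and S100a4 were lower both ways, with a list median log2 ratio of −0.48 and −0.62. Klrg1, a receptor of short-lived effector cells, had 11.6 and 18.3 CPM, against 25.9 and 43.6 CPM. Zeb2, a driver of terminal effector differentiation, had 14.8 and 16.3 CPM, against 28.1 and 53.6 CPM. Id2, an inhibitor of E proteins in effector cells, had 767 and 567 CPM, against 1229 and 916 CPM. A UMI of Klrg1 or of Cx3cr1, a receptor of circulating effector cells, was found in 4.90% and 7.66% of Tcf7+Gzmb+ cells, against 9.84% and 15.6% of Gzmb-only cells.

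All 3 co-inhibitory receptor genes Pdcd1, Lag3 and Ctla4 were lower both ways, of 6 measured with a median log2 ratio of −0.38 and −0.73. Pdcd1 had 59.9 and 19.4 CPM in Tcf7+Gzmb+ cells, against 102 and 59.0 CPM in Gzmb-only cells. Lag3 had 63.4 and 30.6 CPM, against 138 and 58.1 CPM. The log2 ratio of Ctla4 under isotype turned to 1.02 with thinned cells. Of 17 cytotoxic genes Gzmk was lower, and of 19 interferon-stimulated genes Isg20 and Mx1 were lower. Gzma had 678 and 513 CPM, against 1125 and 738 CPM, a gap under 1.5-fold in the isotype library. None of 12 S phase, 7 G2/M, 11 glycolysis or 9 core T cell genes passed the fold without the tumour-marker cells, and of the other lists Cxcr6 and Tnfrsf9 were lower. The level of Gzmb itself, which the rule used, was 1497 and 1084 CPM, against 2920 and 2115 CPM.

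**Figure D3:**
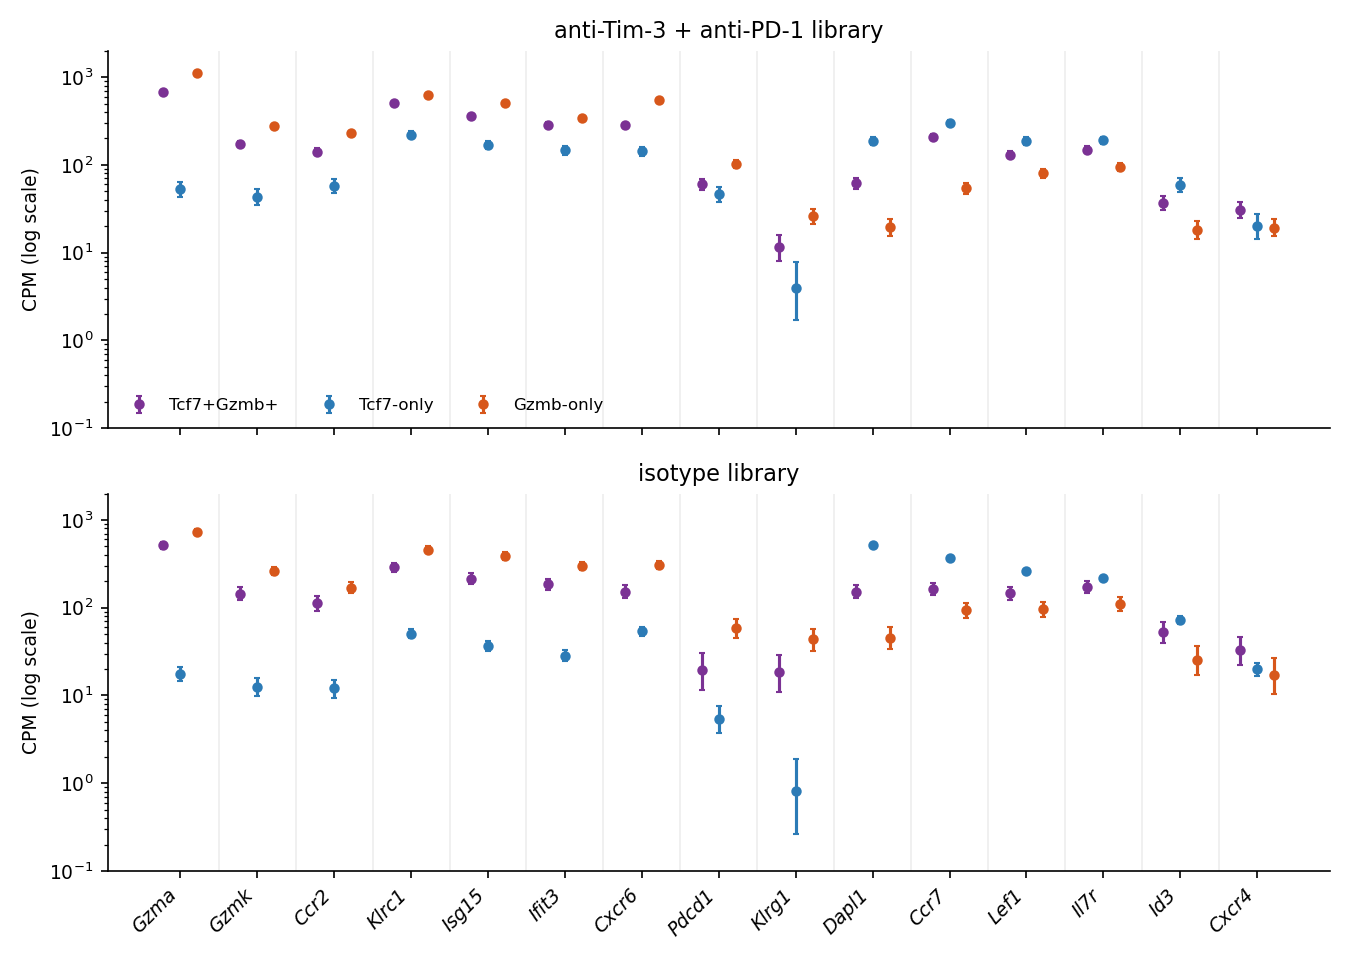
CPM (log scale) of 15 genes in Tcf7+Gzmb+, Tcf7-only and Gzmb-only cells, blockade library above and isotype library below, without the tumour-marker cells; bars are exact Poisson 95% intervals for counting error. For Gzma to Pdcd1 the Tcf7+Gzmb+ point lies between the other classes, as it does for Ccr7, and for Cxcr4 it is the highest of the 3 in both libraries.

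Cxcr4, a chemokine receptor that holds cells in bone marrow and other niches, was the only gene higher in Tcf7+Gzmb+ cells than in both single-positive classes in both libraries, with every cell and without the tumour-marker cells. It had 30.9 CPM (25 to 37.7) and 32.6 (22.3 to 46.0), against 20.1 (14.5 to 27.3) and 19.8 (16.5 to 23.7) in Tcf7-only and 19.3 (15.3 to 24.1) and 17.3 (10.4 to 26.9) in Gzmb-only cells. The intervals overlap with those of Tcf7-only cells in both libraries and with those of Gzmb-only cells under isotype. Ccl2 was lower than in both classes with every cell, and no gene was without the tumour-marker cells.

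Across genes, the double-positive cells sat nearer to Gzmb-only than to Tcf7-only cells for genes higher in Gzmb-only cells. Of genes with a difference of at least 2-fold between Gzmb-only and Tcf7-only cells in both libraries, 81 were higher and 17 lower in Gzmb-only cells. On the log2 scale, the median of the 81 lay 61.9% of the way towards Gzmb-only cells under blockade and 74.3% under isotype. For the 17 genes lower in Gzmb-only cells it was 41.6% and 49.99% of the way. All 81 lay between the classes under blockade, and 77 did under isotype, where Fcer1g, Irf8, Tnf and H2-Q10 went past the Gzmb-only level. All 17 lay between in both libraries. These shares describe classes cut on 2 of the genes of this contrast and are no test.

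Memory and effector transcripts also met within single cells. Counted over 38 naive or memory precursor genes and 45 cytotoxic or terminal effector genes, Tcf7 and Gzmb left out, every Tcf7+Gzmb+ cell had at least 2 of each kind, and so did at least 99.7% of single-positive cells, so this count could not part the classes. With cells thinned to 2000 UMIs, a blockade Tcf7+Gzmb+ cell held 7.39 ± 2.61 memory genes and 13.7 ± 4.05 effector genes (SD over 306 cells). Tcf7-only cells held 8.49 ± 2.61 and 10.9 ± 3.78, and Gzmb-only cells 6.29 ± 2.52 and 15.2 ± 4.10. In the isotype library Tcf7+Gzmb+ cells held 7.83 ± 2.75 memory and 12.2 ± 4.51 effector genes, against 9.51 ± 2.57 and 6.80 ± 3.15 in Tcf7-only and 6.4 ± 2.5 and 13.9 ± 4.17 in Gzmb-only cells. The SDs are wider than most of these gaps, so single cells of the classes overlap widely.

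The double-positive cells were not uniform, and differed with the amount of Gzmb they held. They were split into cells with 1 Gzmb UMI (182 under blockade and 84 under isotype), 2 to 4 (201 and 89) and 5 or more (288 and 60). Gzma had 124, 264 and 1239 CPM across these steps under blockade and 48.2, 203 and 1456 CPM under isotype, where 1 cell gave 41.1% of the UMIs in the top step. Gzmk had 94.4, 127 and 246 CPM under blockade and 81.4, 167 and 190 CPM under isotype. Both granzymes therefore went up with Gzmb in either library.

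Il7r, Klf2 and Dapl1 went the other way. Il7r had 190, 169 and 116 CPM under blockade and 265, 167 and 77.4 CPM under isotype. Klf2, a factor that keeps T cells quiescent and drives S1pr1, had 1443, 1296 and 918 CPM under blockade and 2471, 1992 and 1273 CPM under isotype. Dapl1 dropped already at the middle step, with 136, 39.8 and 36.4 CPM under blockade and 325, 62.9 and 66.8 CPM under isotype. Not every naive or memory gene kept such an order. Ccr7 had 235, 281 and 146 CPM under blockade and 193, 183 and 105 CPM under isotype, and Cxcr3, a chemokine receptor of memory and effector cells, had 256, 210 and 271 CPM and 157, 175 and 229 CPM. Only the fixed panel and a few more genes were followed across the steps, and Actn1, Il6ra, Igfbp4, Myb, Tnfsf8 and Zeb1 were not. Of those followed, all 8 of the naive and homing list were lower in the top than in the first step in both libraries. So were 6 of 8 of the memory precursor list, while its Cxcr3 and Eomes were higher. Any difference counted, however small. Under blockade Eomes had 28.5 CPM in the first and 29.4 in the top step, and Bach2 12.9 and 11.9 CPM. Ifng, the cytokine interferon gamma, had 237, 228 and 215 CPM under blockade, against 184, 257 and 331 CPM under isotype, where 1 cell gave 56.4% of the UMIs in the top step. Median depth was 3804.5, 3975 and 4365 UMIs across the steps under blockade and 3725, 3612 and 4096 under isotype.

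Cells just inside the rule can be set beside those just outside it. Tcf7+Gzmb+ cells with 1 Gzmb UMI had 124 and 48.2 CPM of Gzma, against 52.6 and 17.7 CPM in Tcf7-only cells, which had none. Their Dapl1 was 136 and 325 CPM, against 187 and 513 CPM, and their Klrc1 was 327 and 226 CPM, against 221 and 50.6 CPM. The cells at the edge of the rule thus resembled Tcf7-only cells more than the Tcf7+Gzmb+ class as a whole did for Gzma, Dapl1 and Klrc1. Under isotype their Klrc1 was still nearer to that of the whole class than to that of Tcf7-only cells.

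Between the libraries, Tcf7+Gzmb+ cells under blockade held more RNA of interferon-stimulated genes than those under isotype, and mitotic (G2/M) genes were counted higher too. A gene was measured here with at least 40 UMIs over both libraries together, so it could pass through the library where it was high. The class had more UMIs under blockade, so low genes could pass through that library alone. Mki67, of the G2/M list, had 27 UMIs under blockade in cells with 5 or more Gzmb UMIs, and 3 from 1 cell under isotype. The G2/M count below therefore describes the libraries and does not show more mitosis. With every cell, the class had 3404206 UMIs under blockade and 1049825 under isotype. Of 6657 genes measured with every cell, 757 were at least 1.5-fold higher (11.4%) and 238 lower (3.58%). Without the tumour-marker cells, 638 of 6252 were higher (10.2%) and 231 lower (3.69%), with a median log2 ratio of 0.08 over all genes. Of 20 interferon-stimulated genes 15 were higher and none lower, with a median log2 ratio of 0.66, and of 18 G2/M genes 13 were higher and none lower. With every cell 14 of 20 interferon-stimulated and 13 of 21 G2/M genes were higher. Counted by cells, every cell included, Top2a was found in 9.64% and Mki67 in 3.86% of blockade Tcf7+Gzmb+ cells, against 9.36% and 2.13% of isotype ones. The interferon-stimulated difference was not particular to this class. In Tcf7-only cells 18 of 19 of these genes were higher (median 1.69), and in Gzmb-only cells 4 of 20 (median 0.37). In Tcf7+Gzmb+ cells Isg15 had 361 CPM under blockade and 215 under isotype, and Klrc1 had 501 and 288 CPM. Pdcd1 had 59.9 and 19.4 CPM, and with Lag3 and Ctla4 it made 3 of 8 co-inhibitory genes that were higher. Dapl1 had 62.1 and 153 CPM, and Klf2 1159 and 1946 CPM, and they were among 5 of 17 naive and homing genes that were lower. With every cell 4 of 17 were lower and Igfbp4 was higher. Pdcd1 and Lag3 were also higher, and Klf2 and Dapl1 lower, under blockade in Tcf7-only and in Gzmb-only cells. Of 6 measured myeloid and 6 measured dendritic markers, 4 of each were higher under blockade (5 of 7 and 4 of 6 with every cell), and their part in these differences was not tested.

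Few cytotoxic genes passed the fold between the libraries within the double-positive cells. Of 18 cytotoxic genes, Plac8 was higher under blockade and Gzmc and Ccl3 were lower, with a median log2 ratio of 0.11. In Tcf7-only cells 13 of 19 cytotoxic and 16 of 17 terminal effector genes were higher under blockade, where 839 of 7703 genes were higher (10.9%) and 557 lower (7.23%). In Gzmb-only cells 5 of 21 cytotoxic genes were higher, where 662 of 6869 genes were higher (9.64%) and 257 lower (3.74%). The cytotoxic median was 1.0 in Tcf7-only and 0.29 in Gzmb-only cells on the log2 scale, and with every cell it was 0.07 in Tcf7+Gzmb+, 0.74 in Tcf7-only and 0.28 in Gzmb-only cells. G2/M genes had a median of 1.0 in Tcf7+Gzmb+ and 1.26 in Gzmb-only cells, and of 0.86 and 1.23 with every cell. In Tcf7-only cells their direction turned with the tumour-marker cells, with a median of −0.70 without them (11 of 21 lower, 1 higher) and of 0.36 with every cell (10 of 26 higher, 1 lower). With 1 library per treatment, none of these differences between classes could be tested.

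**Figure D4:**
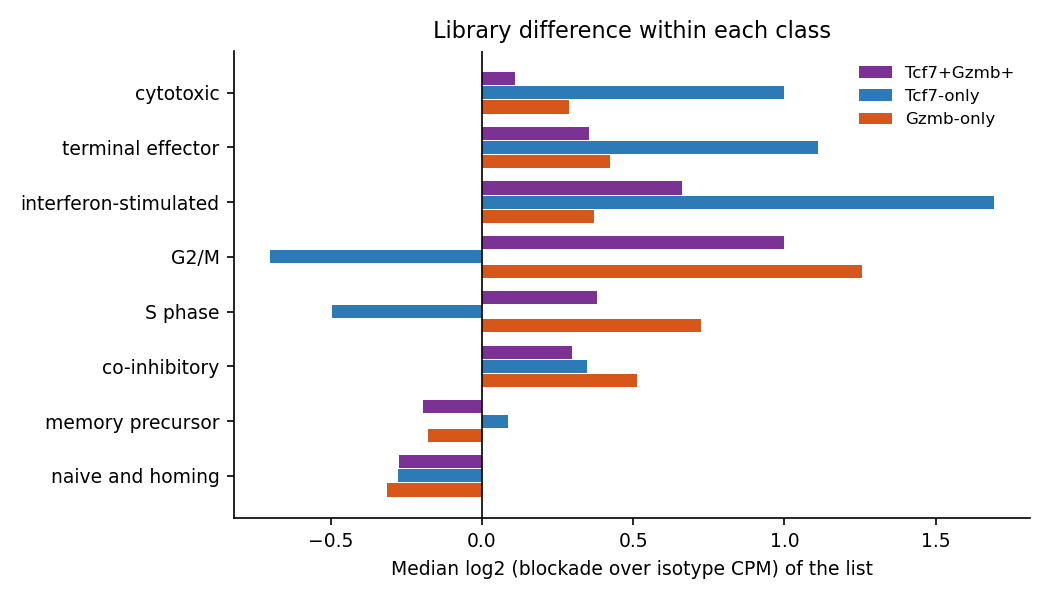
Median log2 ratio of blockade over isotype CPM for 8 gene lists in Tcf7+Gzmb+, Tcf7-only and Gzmb-only cells, without the tumour-marker cells; 1 library per treatment, so no error is shown. In Tcf7+Gzmb+ cells the cytotoxic median is 0.11 and the G2/M median 1.0, while in Tcf7-only cells they are 1.0 and −0.70; with every cell the Tcf7-only G2/M median turns to 0.36.

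The sorted bulk subsets, which played no part in choosing the cells, all held RNA of both Tcf7 and Gzmb. Tcf7 had 320, 343, 266, 352 and 251 CPM in the 5 memory-like libraries, against 582 to 774 CPM (median 682) in the 6 naive-like libraries, without overlap. The log2 difference was −1.27 (SE 0.13, adjusted p = 0.00022, edgeR). Gzmb had 1071, 726, 1234, 1608 and 2656 CPM in memory-like libraries, against 92.3 to 389 CPM (median 133) in naive-like libraries. It was 2.89 log2 units higher (SE 0.41, edgeR adjusted p = 0.00106), again without overlap. In effector-like libraries Tcf7 had 106, 91.5 and 124 CPM, below every memory-like library, a log2 difference of −1.60 (SE 0.16, edgeR adjusted p = 8.42e-05). Gzmb had 2329, 3589 and 4210 CPM in effector-like libraries, and the difference of 1.14 log2 units from memory-like libraries (SE 0.46) did not pass the test (edgeR adjusted p = 0.323). Memory-like libraries thus lay between the other subsets for Tcf7, while their Gzmb was higher than in naive-like libraries and overlapped that of effector-like ones, and bulk RNA does not say whether both transcripts were in the same cells. Fewer cells of a type and less RNA per cell cannot be told apart in bulk samples.

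**Figure D5:**
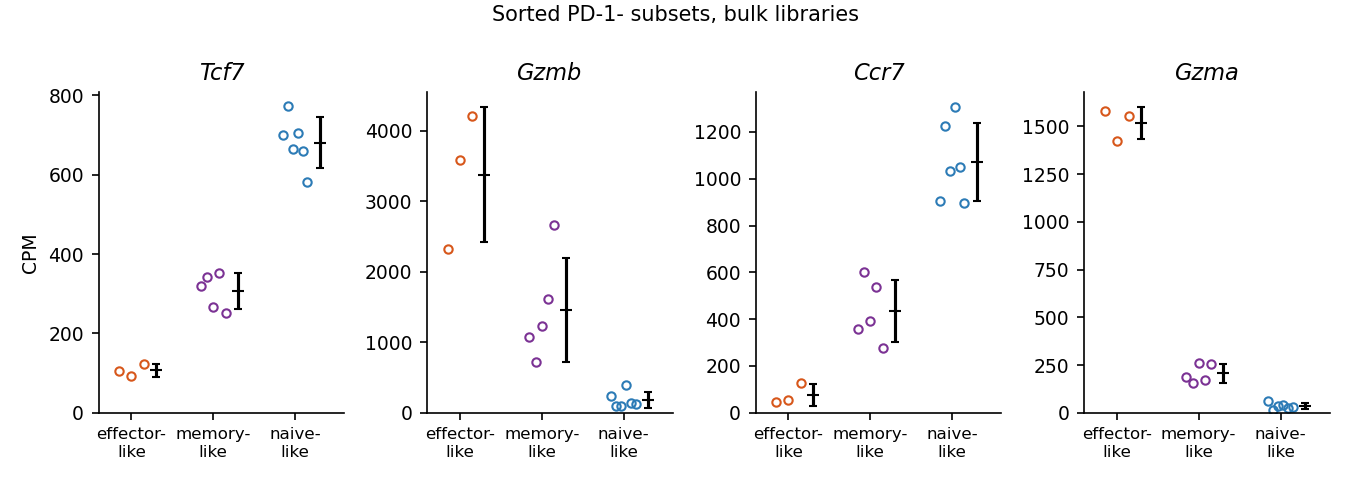
CPM of Tcf7, Gzmb, Ccr7 and Gzma in effector-like (3), memory-like (5) and naive-like (6) bulk libraries; circles are libraries, bars the mean and SD. Memory-like libraries lie between the others for Tcf7, Ccr7 and Gzma, and their Gzmb range of 726 to 2656 CPM overlaps that of effector-like libraries.

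Genes that set Tcf7+Gzmb+ cells apart from Tcf7-only cells were often higher in memory-like than in naive-like libraries. Over all genes, 345 of 12388 were higher (2.78%) and 338 lower (2.73%) in memory-like libraries. The genes taken to the bulk data were those counted with every cell. Of these, 119 of 175, 28 of 63, 19 of 29 and 30 of 40 were counted both ways. Of the 175 genes higher than in Tcf7-only cells, 165 could be tested, and 48 were higher and 1 lower in memory-like libraries. The 48 include the gene of a surface marker by which the sort parted memory-like from naive-like cells. The 165 genes had a median log2 difference of 0.51, against −0.01 over all genes. Gzma averaged 207 ± 49.9 CPM in memory-like (SD, n = 5) and 34.2 ± 16.1 CPM in naive-like libraries (n = 6), 2.46 log2 units higher (edgeR adjusted p = 0.00022). Klrc1 averaged 188 ± 22.8 and 50.8 ± 15.7 CPM (edgeR adjusted p = 0.000729). Cxcr6 averaged 238 ± 97.4 and 44.7 ± 17.5 CPM (edgeR adjusted p = 0.00158). Isg15 averaged 59.0 ± 16.8 and 24.5 ± 10.0 CPM (edgeR adjusted p = 0.0396), but lost the call in 10 of 20 alternative settings, with adjusted p between 0.00468 and 0.101. Rsad2 did not pass (edgeR adjusted p = 0.579). Of 58 tested genes lower than in Tcf7-only cells, 9 were lower in memory-like libraries and 1, Ube2c, was higher, with a median of −0.67. Ube2c was not counted both ways.

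Genes that set Tcf7+Gzmb+ cells apart from Gzmb-only cells went the opposite way in this bulk comparison, in which memory-like cells were set against naive-like ones. Of the 29 genes higher than in Gzmb-only cells, 11 were lower in memory-like than in naive-like libraries and 1, Birc5, was higher, with a median log2 difference of −0.58. Birc5 was not counted both ways. Ccr7 averaged 434 ± 133 CPM in memory-like and 1070 ± 167 CPM in naive-like libraries, 1.42 log2 units lower in memory-like (edgeR adjusted p = 0.00693). Lef1 averaged 132 ± 21.5 and 348 ± 85.9 CPM (edgeR adjusted p = 0.00035). Of 38 tested genes lower than in Gzmb-only cells, 14 were higher in memory-like libraries and none lower, with a median of 0.92. These counts include genes of surface markers that the sort itself used.

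Effector-like libraries, set against memory-like ones, had 60 genes higher (0.484%) and 177 lower (1.43%) of 12388. Of the 29 genes higher in Tcf7+Gzmb+ than in Gzmb-only cells, 10 were lower in effector-like libraries and none higher, with a median log2 difference of −1.04 against 0.01 over all genes. Ccr7 averaged 76.2 ± 45.7 CPM in effector-like libraries (n = 3) and 434 ± 133 CPM in memory-like libraries (edgeR adjusted p = 0.000915). Id3 averaged 8.34 ± 5.51 and 37.7 ± 13.8 CPM (edgeR adjusted p = 0.00837), and lost the call without effector-like library 2 (adjusted p = 0.0621), with the replicate number as a block (0.0965) and with only the subsets compared (0.0541). Il7r averaged 169 ± 51.3 and 335 ± 51.7 CPM (edgeR adjusted p = 0.0302), a call lost without effector-like library 2 (adjusted p = 0.177) and in 5 other settings that left out 1 library. Of the 165 genes higher than in Tcf7-only cells, 6 were higher and 5 lower in effector-like libraries. Gzma was among the 6, with 1518 ± 82.2 CPM in effector-like and 207 ± 49.9 CPM in memory-like libraries (edgeR adjusted p = 0.000186). Cxcr4 passed in neither comparison (edgeR adjusted p = 0.742 against memory-like and 0.444 for memory-like against naive-like libraries).

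Some facts of the bulk libraries moved with these groups. The library names carry another date for naive-like libraries than for the others, so date and subset cannot be told apart there. The names of effector-like libraries 1 and 2 carry several numbers each and may be pools. Library 3 carries a number that library 2 also carries, so 2 of the 3 effector-like libraries may share a source and the 3 may not be independent. Both comparisons share the memory-like libraries. Siglech, a marker of plasmacytoid dendritic cells, ranged from 17.4 to 418 CPM in memory-like libraries, against 0 to 58.6 CPM in naive-like ones and 0.147 to 17.3 CPM in effector-like ones. Krt8, an epithelial and tumour cell keratin, had 146, 250 and 2.19 CPM in effector-like libraries, against 4.75 to 49.2 CPM in memory-like ones. Their part in the differences was not tested.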

How the data were processed

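Single-cell values were whole UMI counts per gene and cell, as deposited by the authors; Cell Ranger 1.3 and mm10 are named in the submitters' processing notes. Bulk values were expected counts per gene as deposited by the authors, with TopHat, RSEM, DESeq and mm9 named, without roles, in the submitters' processing notes; they were rounded to whole numbers here. Bulk totals ran from 5027083 to 7978214 counts, and single-cell depth is given with the results. The members and gene lists were chosen with earlier results of these data known.

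Cells under 500 genes or over 10% mitochondrial UMIs were left out. No doublets were removed and no doublet caller was run. Class totals of UMIs were made in each library, and ratios used a pseudocount of 1 UMI, at least 40 UMIs in the 2 classes together in each library and a threshold of 1.5 in both libraries. Ratios between the libraries within a class needed 40 UMIs over both libraries together. Intervals (95%, exact Poisson or Clopper-Pearson) and limits for a count of 0 (3 counts) cover counting error only. Thinning drew 2000 UMIs per cell and left out 251 isotype and 0 blockade cells, which were shallower. Ighm, Igkc, Trac, Trbc1, Trbc2 and the gamma-delta receptor genes were not analysed here.

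Of 21614 bulk rows, 4 with repeated names were dropped and 12388 genes passed edgeR's filter. They were tested with edgeR 4.0.16 (quasi-likelihood, TMM, Benjamini-Hochberg adjustment over all genes, threshold 0.05) in 1 fit of all 14 libraries in R 4.3.3, with DESeq2 1.42.0 as an alternative. The edgeR test and the fold rule were tested on simulated data. Python 3.11.15, numpy 2.4.6, scipy 1.17.1 and pandas 2.3.3 were used for the rest. Named genes were a fixed panel, the 8 genes with the largest smaller ratio in each direction of each class comparison, genes beyond both classes and up to 4 per list; any other gene was chosen after its values were seen. Some items, a surface marker of the bulk sort gates among them, are not reported here.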

Additional observations from a re-analysis of the deposited data

Results flagged for a closer look

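In 48 groups of bulk libraries (24 genes in memory-like and in naive-like libraries), 3 held a library that stood far from the others, and chance gives such a gap in about 1 in 20 groups. Klrg1 was 20.8 CPM in memory-like library 5, against 8.57 to 11.9 CPM in the other 4, and 1.94 CPM in naive-like library 5, against 0 to 0.713 CPM in the other 5. Id2 was 406 CPM in memory-like library 1, against 331 to 349 CPM in the other 4.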

How the results depend on the processing

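The share of Tcf7+Gzmb+ cells was 12.7% under blockade and 4.12% under isotype with thinned cells, 7.15% and 1.68% with at least 2 UMIs of each gene, and 5.83% under isotype without cells with 3 or more cell cycle UMIs, so depth and the threshold set its size, while blockade stayed above isotype in each. The counts of genes higher and lower than in Tcf7-only and higher and lower than in Gzmb-only cells were 89, 25, 7 and 11 with thinned cells, 105, 30, 7 and 17 without cells with markers of other cell types, 77, 18, 4 and 11 without cells with 3 or more cell cycle UMIs, 33, 14, 3 and 5 at a ratio of 2, and 94, 18, 13 and 17 with at least 100 UMIs; with 2 UMIs of each gene 111 were higher than in Tcf7-only cells. Fewer genes could be measured in the settings that left out cells or UMIs. Cells with 3 or more cell cycle UMIs were 63.8% to 86.5% of each class and library, so leaving them out removed most cells. Without cells with markers of other cell types, 47, 3, 5 and 6 genes were among the 175, 63, 29 and 40 counted with every cell. Without cells with 3 or more cell cycle UMIs, 25, 3, 2 and 3 were. Against Gzmb-only cells under isotype, the log2 ratio of Ifit1 turned to 0.37 and of Ctla4 to 1.02 with thinned cells, and of Ccr7 to −0.61 without cells with cell cycle UMIs; the cause was not tested.

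In the bulk data, DESeq2 called 740 genes (higher) and 568 (lower) for memory-like against naive-like libraries, and 164 and 369 in effector-like against memory-like. With 1 library left out, the counts ran from 160 to 430 higher and 180 to 385 lower (memory-like against naive-like) and from 23 to 77 and 82 to 221 (effector-like against memory-like). Of members, 36 to 52 (higher than Tcf7-only), 9 to 13 (higher than Gzmb-only) and 12 to 16 (lower than Gzmb-only) kept a call in the first comparison and 8 to 11 in the second. Counts moved by over 1.5 times without memory-like library 1 (160 and 180), 3 (198 lower) or 4 (224 higher) in the first, and in the second, for genes higher, without memory-like library 1 (34), 2 (38), 3 (29) or 4 (36) or effector-like library 1 (35), 2 (23, and 82 lower) or 3 (34). With only the subsets compared, 117 genes were lower in effector-like libraries. Dapl1 lost its call in memory-like against naive-like libraries in 12 of 20 settings (adjusted p up to 0.102 with 1 library left out), and Klrg1 its call in effector-like against memory-like without effector-like library 3 (edgeR adjusted p = 0.0523).

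Same-numbered libraries did not deviate together (correlations from −0.01 to 0.09 between memory-like and naive-like and from −0.25 to 0.00 between effector-like and memory-like), and those whose names carry the same number, a check added after seeing the data, did not either (−0.10 to 0.01 over 5 pairs of memory-like and naive-like libraries). Effector-like library 3 shared a name number with 1 memory-like library (correlation 0.24), too few to show pairing. With the replicate number as a block, 247 genes were higher and 276 lower in memory-like than in naive-like libraries, and 31 and 92 in effector-like against memory-like. With the name number as a block and only memory-like and naive-like libraries, an alternative also added after seeing the data, 84 were higher and 102 lower in memory-like, with 26 of 164 members higher than Tcf7-only and 9 of 38 lower than Gzmb-only called higher.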
